A study of Nothobranchius furzeri with 20 samples.

Results

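The comparison described here is swim tunnel exercise against no exercise in the brain of young turquoise killifish (Nothobranchius furzeri), measured by RNA-seq. Its members are the 10 libraries of 9 weeks among the 20 of the series, and they were chosen by their labels alone. All are labelled as brain of male fish, and the strain, MZM-04/10p, derives from wild-caught fish. The exercised group holds 5 libraries labelled swim-tunnel at 9 weeks, and the unexercised group holds 5 libraries labelled none at 9 weeks. The library numbers in the sample titles run in separate ranges for the groups, so exercise cannot be told apart from position in that numbering. The other 10 libraries came from fish of 27 weeks of the same strain and sex, all labelled swim-tunnel, and apart from 1 alternative fit they are used only to show the level of selected genes in other fish. For the genes that fell with exercise, 5 of these 10 stood with the unexercised fish of 9 weeks, as described at the end. A swim tunnel is a tank in which fish swim against a current. The labels give neither the length or speed of the swimming nor the time between exercise and sampling. No label says that each library came from a different animal, so p-values measure the spread between libraries, which are called fish here.

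The turquoise killifish lives in seasonal ponds, matures and ages within months, and is used as a vertebrate model of ageing. In rodents, running is known to raise growth factors such as BDNF in the hippocampus and to increase the birth of neurons there. The teleost brain keeps making neurons through adult life. The deposited genes carry identifiers without names, and 0 of 26739 identifiers matched the RefSeq table of assembly NfurGRZ-RIMD1. Roles can therefore not be given for any gene below, markers of brain cell types were not checked, and no sequence is shown.

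Total counts ranged from 15048627 to 34843199 in exercised fish and from 22260804 to 29891279 in unexercised fish. Between 21440 and 22032 genes had at least 1 count in a 9-week library. The 10 most counted genes held between 3.05% and 3.72% of the counts of a library. No pair of fish within a group had counts as alike as those of 1 library deposited more than once (chi-square divided by its degrees of freedom was 7.86 or more).

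Exercise at 9 weeks went with few changes that passed the threshold, and most of them were falls. Of 19123 genes tested, 19 (0.0994%) had an adjusted p below 0.05 in edgeR's quasi-likelihood test, 15 lower (0.0784%) and 4 higher (0.0209%) in exercised fish. The log2 fold changes of these 19 ranged in size from 0.30 to 1.62. The 4 rises had log2 fold changes of 0.30, 0.35, 0.43 and 1.01, while 7 of the 15 falls exceeded 2-fold. In every one of the 19, all 5 exercised fish lay on one side of all 5 unexercised fish, against 2.6% of all genes tested. A call needs a small spread beside the difference, so this separation follows in part from the call itself. In brain tissue, fewer cells of a type and less RNA per cell cannot be told apart, which holds for every gene below. The last gene inside the threshold had an adjusted p of 0.0457 and the first outside one of 0.0584.

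By the rule for naming genes, the 2 largest rises and the 2 largest falls among these 19 are given by identifier. Nfu_g_1_003916, the largest rise, stood at 5.03, 5.06, 5.62, 6.48 and 6.52 CPM (counts scaled by each library's total count) in the 5 unexercised fish. In the 5 exercised fish it stood at 12.9, 11.2, 13.0, 10.4 and 11.2 CPM. The groups were separated by a gap wider than the range of either, and the means were 5.74 ± 0.730 CPM (SD, n = 5) and 11.7 ± 1.15 CPM (n = 5), a log2 fold change of 1.01 (SE 0.11, edgeR adjusted p = 0.0165).

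Nfu_g_1_010461, the second largest rise, was the more even of the pair. It stood at 18.1, 19.4, 19.1, 18.1 and 19.1 CPM in unexercised fish and at 25.1, 24.1, 27.0, 26.8 and 25.4 CPM in exercised fish. All exercised fish were above all unexercised fish, and the SD within a group was 0.621 CPM without and 1.19 CPM with exercise. The log2 fold change was 0.43 (SE 0.05, edgeR adjusted p = 0.0239), so a change well under 2-fold passed in a gene with this little spread.

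Nfu_g_1_011166 had the largest fall. It stood at 33.9, 23.9, 23.4, 22.6 and 36.3 CPM in unexercised fish and at 9.48, 9.64, 7.38, 7.73 and 11.9 CPM in exercised fish. The groups did not overlap, and the gap between them was somewhat narrower than the range of the unexercised fish. The log2 fold change was -1.62 (SE 0.18, edgeR adjusted p = 0.0165).

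Nfu_g_1_007097 had the second largest fall and was the more abundant of these falls. Its level was 77.9, 86.1, 101.4, 116.5 and 145.4 CPM in unexercised fish, a mean of 105.5 ± 26.8 CPM (SD, n = 5). In exercised fish it was 34.4, 27.4, 38.0, 36.6 and 41.3 CPM, a mean of 35.6 ± 5.18 CPM (n = 5). The groups did not overlap, and the log2 fold change was -1.60 (SE 0.18, edgeR adjusted p = 0.0165). Per kilobase of gene length, which was derived from the deposited values, the mean over the 10 fish was 33.0 CPM per kilobase for Nfu_g_1_007097, 10.2 for Nfu_g_1_011166, 10.3 for Nfu_g_1_010461 and 5.58 for Nfu_g_1_003916, against a median of 7.59 over all genes tested.

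**Figure D1:**
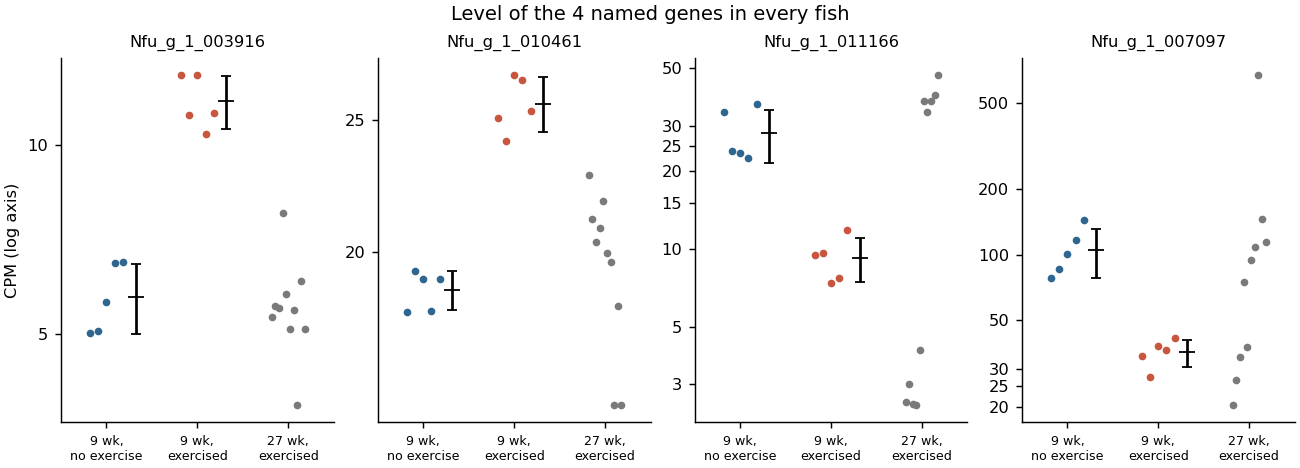
Level in CPM (log axis) of the 4 named genes in each of the 20 fish, one point per fish, with the mean and SD of each 9-week group as a bar beside its points. Exercised and unexercised fish of 9 weeks do not overlap in any panel. The 27-week fish lie on both sides of the 9-week groups for Nfu_g_1_011166 and Nfu_g_1_007097.

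The number of calls fell in every fit that left out 1 fish, to between 0 and 15, by an amount that varied with the fish. Fewer fish by themselves lower the number of calls, and the size of that part was not tested. In the 10 fits that each left out 1 fish, all 19 genes had an unadjusted p below 0.05 in edgeR every time. They had been chosen for small p-values in the same fish, so this outcome was likely beforehand. Their sign could not turn because their groups do not overlap. The number of genes past the threshold fell to 10, 7 and 0 without exercised replicates 1, 2 and 3, and to 4, 10 and 9 without unexercised replicates 2, 4 and 5. Without exercised replicate 3, edgeR still gave 2119 genes an unadjusted p below 0.05, and the 4 named genes had log2 fold changes of 0.98, 0.42, -1.55 and -1.62 with the same adjusted p of 0.0740. Nfu_g_1_010461 also lost its call without unexercised replicate 2 (edgeR adjusted p = 0.0606) or 4 (adjusted p = 0.0745).

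The other 4 fits gave 14 or 15 genes. Genes shared with the 19 numbered 14 without unexercised replicate 3 but only 7 without exercised replicate 4, where 15 genes passed. The highest adjusted p among the 19 lay between 0.0685 and 0.163 over the 10 fits. DESeq2 on all 10 fish called 353 genes, 198 lower and 155 higher, and all 19 were among them. It was given every gene with a count and used its own filter, so the set of genes tested differed. Without a filter, edgeR called 18 genes. At an unadjusted p below 0.05 there were 2426 genes in DESeq2, against 2315 in edgeR and 2513 in edgeR without a filter. The 4 named genes had DESeq2 adjusted p-values from 5.1e-15 to 6.7e-08. Why the numbers of calls differed was not tested. DESeq2 tested the same counts, so the shared genes are no independent evidence. With all 20 fish in one edgeR fit only Nfu_g_1_003916 passed, and the log2 fold changes of Nfu_g_1_011166 and Nfu_g_1_007097 stayed at -1.62 and -1.59 while their adjusted p rose to 0.875 for both. That fit estimates the spread from the 27-week fish as well, in which these 2 genes varied widely. In the same fit Nfu_g_1_010461 had a log2 fold change of 0.43 and an edgeR adjusted p of 0.221. Only 8 of the 19 genes kept an unadjusted p below 0.05 there, and 1160 genes in all had one.

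Over all genes the fold changes were small. The median size was 0.094, and 99% of genes differed by less than 1.14 on the log2 scale. The TMM scaling centres the fold changes, so the overall balance of directions is set by it: 50.7% of all genes tested were lower in exercised fish with TMM and 44.1% with raw library totals. At an unadjusted p below 0.05 in edgeR there were 2315 genes (12.1%), 1210 lower (6.33%) and 1105 higher (5.78%) under the same scaling. Among differences of more than 2-fold (1.36% of genes tested), 165 genes were lower and 96 higher.

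Most of these larger differences did not pass. Among genes with at least 1 CPM in the higher group, 233 differed by more than 2-fold and 8 of them were called. The 225 that were not called had a median SE of 0.49 on the log2 scale, against 0.11 in the 19 called genes. In 38 of the 225 the groups did not overlap, against 2.6% of all genes tested. Selection for a difference above 2-fold itself favours such separation. A single fish held more than 50% of the residual sum of squares in 44 of the 225 (19.6%), against 11.8% of all genes tested. Exercised replicate 4 was the fish farthest from its group mean in 59 of them (26.2%, against 12.4% of all genes), and unexercised replicate 5 in 37 (16.4%, against 10.9%).

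The size of the fold changes and their error both fell with expression level. In log2 units the median size was 0.27 in the 1269 genes below 1 CPM, 0.15 in the 5856 genes of 1 to 10 CPM, 0.077 in the 9621 genes of 10 to 100 CPM and 0.054 in the 2377 genes of 100 CPM or more. The SE fell alongside, with medians of 0.32, 0.17, 0.080 and 0.061. A gene with the median SE of its class would have needed a 4.39-fold change to reach the largest p that passed (4.54e-05) below 1 CPM. At 1 to 10 CPM it would have needed 2.20-fold, at 10 to 100 CPM 1.44-fold and at 100 CPM or more 1.32-fold.

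The called genes sat mainly in the middle of this range. None of the 19 was below 1 CPM, 3 lay between 1 and 10 CPM, 14 between 10 and 100 CPM and 2 at or above 100 CPM. These are 0.0512%, 0.146% and 0.0841% of the genes in the last 3 classes. Their mean levels over the 10 fish ran from 6.72 to 239.1 CPM with a median of 27.6 CPM, against 18.1 CPM over all genes tested. The share of genes with an unadjusted p below 0.05 varied less, from 10.6% below 1 CPM to 12.8% at 10 to 100 CPM. No gene had counts in all 5 exercised fish and none in unexercised fish, and 2 had counts in all 5 unexercised fish only, with 1 count in each fish.

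**Figure D2:**
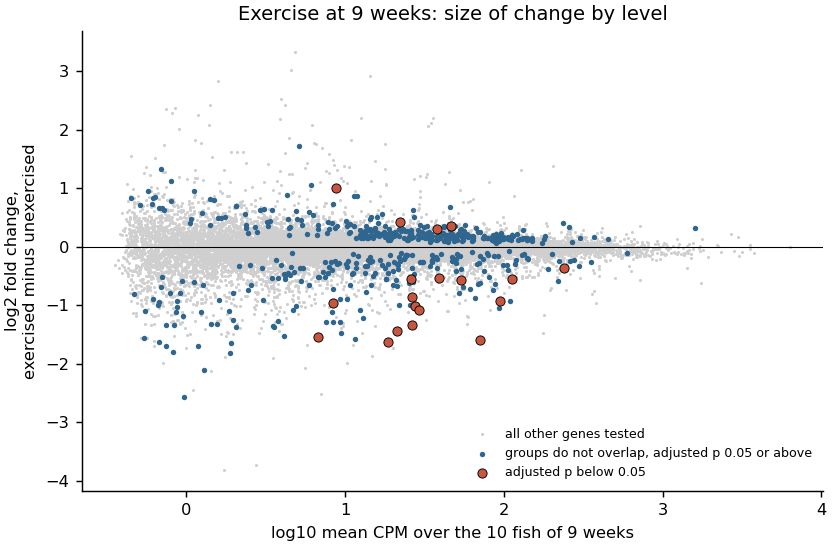
Log2 fold change (exercised minus unexercised) against the log10 mean CPM of the 10 fish, one point per gene tested. Grey points are genes whose groups overlap, blue points are genes whose groups do not overlap but that did not pass the threshold, and red points are the 19 genes that passed. The red points lie between 6.72 and 239.1 CPM, 15 of them below the line of no change.

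Separation of the groups was more common than a call, and its direction depended on size. All 5 exercised fish lay above or below all 5 unexercised fish in 497 genes (2.6% of genes tested), 280 above (1.46%) and 217 below (1.13%). With raw library totals in place of TMM scaling the counts were 389 above and 173 below, so the balance between directions moved with the scaling. The separated rises were small, with a median log2 fold change of 0.22 and 5 of 280 over 2-fold. The separated falls were larger, with a median of -0.45 and 43 of 217 over 2-fold. Beyond the 19 called genes there were 478 separated genes, with edgeR adjusted p-values from 0.0584 to 0.634, of which 195 were below 0.2.

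The balance of rises and falls differed between short and long genes, although their median fold changes were small. In the 3831 shortest genes (up to 1122 bases) 55.8% were lower in exercised fish, and in the 3824 longest (5339 bases and more) 47.1% were. The median log2 fold changes were -0.017 and 0.0086. At an unadjusted p below 0.05 the shortest had 122 rises and 244 falls, while the longest had 300 rises and 213 falls. The share of genes lower in exercised fish also varied with the level per kilobase of gene length. In 5 equal classes from the lowest to the highest such level it was 51.7%, 51.2%, 47.3%, 46.3% and 56.8%. Whether the imbalance goes with length or with level per kilobase was not tested. The slope of log2 CPM on log2 length, taken in each fish relative to the mean of the 10, averaged 0.00490 ± 0.0105 (SD, n = 5) in exercised and -0.00490 ± 0.00840 (n = 5) in unexercised fish. That difference of 0.00980 per doubling of length did not pass an exact permutation test over the 252 splits of the fish (two-sided p = 0.135, where the smallest possible is 0.00794). Of the 19 called genes none was among these shortest genes, and their median length was 2820 bases against 2694 over all genes tested.

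The variation among fish within the groups, to which no label is attached, was described by the first principal component of log2 CPM after the mean of each group had been subtracted. Scores average 0 in each group by construction, so the component cannot separate the groups. It held 34.3% of the residual variance, against 14.2% for the second component and 12.1% for the third. Its scores are relative positions of the fish, with an arbitrary sign. Exercised replicates 1 to 5 scored 0.26, -0.44, 0.25, -0.40 and 0.32, and unexercised replicates 1 to 5 scored -0.34, 0.46, -0.26, 0.011 and 0.12. Unexercised replicates 4 and 5 lay nearest to 0, and the other 8 fish were at least 0.25 from it.

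The component was lopsided between genes. Between the fish of highest and lowest score its loading corresponded to a change of more than 2-fold in 908 genes, of which 802 were higher at the negative end and 106 at the positive end. The fish at the negative end were exercised replicates 2 and 4 and unexercised replicates 1 and 3. Total counts were 34843199 and 20557058 in the first pair and 22260804 and 29891279 in the second, against 15048627 to 18462248 in the other exercised fish and 23019802 to 29774339 in the other unexercised fish. The length slope, relative to the group mean, was positive in all 4 fish at the negative end (0.00081 to 0.0098). It was negative in exercised replicates 1 and 3 and unexercised replicates 2 and 5, but positive in exercised replicate 5 (0.0057), which had a positive score, and in unexercised replicate 4 (0.0042), whose score was near 0. The part of depth or gene length in the component was not tested.

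Set against exercise on the same scale, the unlabelled component was the larger. Summed over genes, exercise accounted for 16.2% of the variance of log2 CPM among the 10 fish, the component for 28.8% and all other differences between fish for 55.0%. The medians per gene were 9.03% for exercise and 11.1% for the component. An arbitrary split of the fish also takes part of the variance, so the 16.2% does not measure the effect of exercise alone. The component is the direction of greatest residual variance by definition, while exercise is fixed by the labels, so these shares were not obtained alike. The component outweighed exercise in 10033 genes (52.5%). It held more than 50% of the variance in 2347 genes (12.3%), and exercise did so in 1196 genes (6.25%), all 19 called genes among them.

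In the 19 called genes the component held little of the total variance. Exercise accounted for at least 80.5% of their variance and the component for at most 6.48%, with medians of 87.4% and 0.302%. In Nfu_g_1_011166 the shares were 89.7% and 0.0024%, and in Nfu_g_1_007097 they were 88.9% and 1.29%. Nfu_g_1_003916 had 92.0% and 0.789%, and Nfu_g_1_010461 had 93.9% and 0.302%. A gene that passes needs a small residual, so a low share of total variance follows in part from the call itself. Of the residual variance alone the component held a median of 4.94% in the 19 genes, against 13.9% over all genes tested, and as much as 45.0% in 1 of the 19. In 3 of the 19 this share was above the median of all genes. Genes with a large such share passed less often. An unadjusted p below 0.05 in edgeR was reached by 14.2% of the 3825 genes with the smallest share and 5.65% of the 3825 with the largest. A low share of residual variance may therefore also follow in part from the call itself.

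With the component as a covariate edgeR called 29 genes (0.152%), 23 lower and 6 higher, and these included all 19. Log2 fold changes of the 19 moved by at most 0.0085, and the median shift over all genes tested was 0.0019. Scores average 0 in each group, which by itself keeps such shifts small in most genes. The number of genes with an unadjusted p below 0.05 rose from 2315 to 2892, of which 2236 were shared, and the falls among them from 1210 to 1671. The median SE over all genes was 0.105 without and 0.094 with the component. The component is the direction of greatest residual variance in these same fish, so part of these changes follows by construction. Genes with an unadjusted p below 0.05 increased in all 4 classes of level, for example from 698 to 818 at 1 to 10 CPM and from 1230 to 1591 at 10 to 100 CPM. By construction the gain was greatest in genes with a large share of the component in their residual variance. In the 3825 genes with the largest share (41.7% and more) the median SE was 0.12 without and 0.073 with the component, the genes with an unadjusted p below 0.05 numbered 216 and 704, and the calls 1 and 9. In the 3825 genes with the smallest share (up to 2.27%) they numbered 542 and 495, with 8 calls in both fits.

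Of the 10 added genes, 8 were already separated between the groups, against 2.6% of all genes tested. Selection by a small p itself favours such separation. These 8 genes had edgeR adjusted p-values of 0.0584 to 0.205 without the component, 6 of them falls. The other 2 had overlapping groups and an adjusted p of 0.918 and 0.969 without the component, which held 95.9% and 94.4% of their variance. In these the fold change itself moved, from -0.20 to -0.27 and from -0.20 to -0.63 on the log2 scale. The component was estimated from the same counts that are tested, so the calls made with it as a covariate are no independent evidence.

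**Figure D3:**
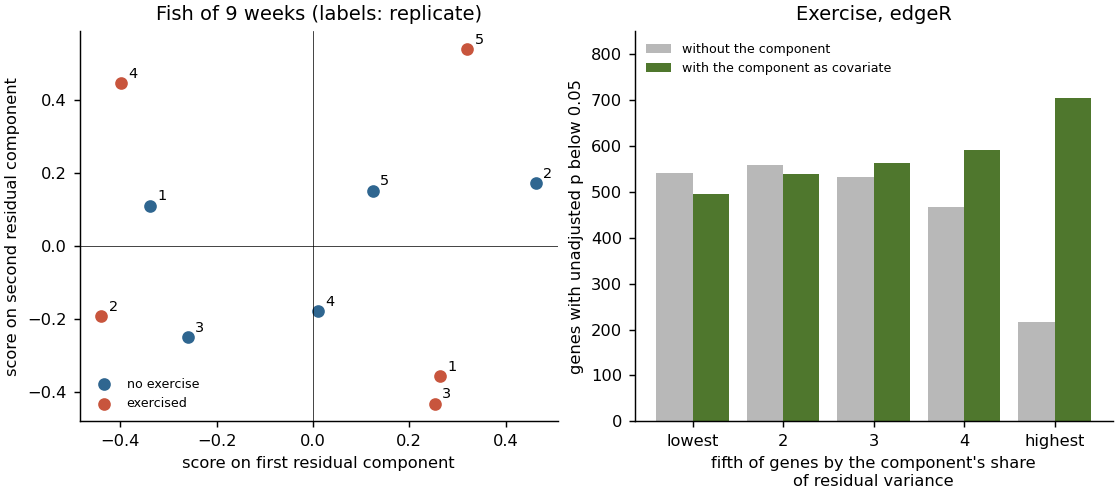
Left, scores of the 10 fish of 9 weeks on the first and second residual components, labelled by replicate, with exercised fish in red and unexercised fish in blue. Scores average 0 in each group by construction, and unexercised replicates 4 and 5 lie nearest to 0 on the first component. Right, number of genes with an unadjusted p below 0.05 for exercise in 5 equal classes of genes by the component's share of residual variance, without and with the component as a covariate. In the highest class the numbers are 216 and 704, and in the lowest 542 and 495.

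The number of genes called with the component depended strongly on which fish were present. When the component was recomputed and 1 fish left out, edgeR called 243 genes without unexercised replicate 2, 226 of them lower in exercised fish, and, without exercised replicate 4, 105 genes lower and 36 higher. It called 94 without exercised replicate 2, 86 of them lower. These 3 fish had scores of 0.46, -0.40 and -0.44, the farthest from 0 of the 10. The counts were 6 and 0 without exercised replicates 1 and 3, the last with 2518 genes at an unadjusted p below 0.05, and 13 and 16 without unexercised replicates 1 and 3. The genes called without these 3 fish in turn held 19, 19 and 18 of the 19 genes called without the component. The same 3 fits without the component gave 4, 15 and 7 genes. With the component, 22 genes were called without exercised replicate 5, and 21 and 26 without unexercised replicates 4 and 5. Adding the component lowered the count from 10 to 6 without exercised replicate 1 and from 14 to 13 without unexercised replicate 1. Without exercised replicate 3 the count was 0 in both fits.

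**Figure D4:**
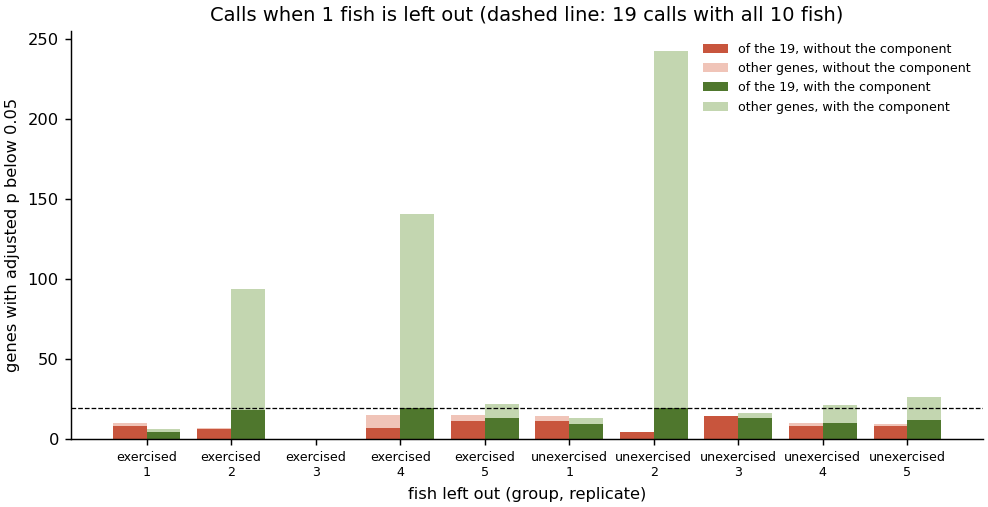
Number of genes past the threshold when the fish named on the horizontal axis is left out, with and without the first residual component in the model. The darker part of each bar counts genes that are among the 19 of the full comparison, and the dashed line marks 19. Without the component the counts run from 0 to 15, and with it from 0 to 243.

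The fish of 27 weeks took no part in choosing the 19 genes and show how these genes stand in other brains. Each 27-week fish was placed, gene by gene, on the exercised or the unexercised side of the midpoint between the mean log2 CPM of the 9-week groups. For the 15 genes that fell, 27-week replicates 1 to 5 lay on the exercised side in 14, 14, 15, 12 and 14 genes. Replicates 6 to 10 did so in 2, 1, 1, 1 and 1 genes. All 10 carry the same label, swim-tunnel at 27 weeks. Replicate numbers follow the order in which samples are listed, and the library numbers in the sample titles run without a break in replicates 1 to 5 and resume after a gap in replicates 6 to 10. At 9 weeks they likewise run without a break in exercised fish and resume after a gap in unexercised fish. The numbers also break inside the unexercised fish of 9 weeks and inside 27-week replicates 6 to 10. A gap therefore does not by itself mark a group, and no label names a batch. The falls at 9 weeks cannot be told apart from a difference between such ranges of numbers. For the 15 genes that fell, then, 27-week replicates 6 to 10 lie with the unexercised fish of 9 weeks although labelled as exercised. Whether the label holds for all 10 fish of 27 weeks is not settled here. The labels were used as given. In 11 of the 15 genes exactly 5 of the 10 fish lay on the exercised side.

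These falling genes were accordingly spread more widely at 27 weeks than at 9 weeks. Their SD over the 10 fish ran from 0.41 to 2.23 log2 CPM and exceeded the SD of both 9-week groups in all 15, where the 9-week values ran from 0.065 to 0.50. Nfu_g_1_011166 had a lowest, median and highest level of 2.48, 19.0 and 47.3 CPM at 27 weeks. Of these 10 fish, 5 lay between 2.48 and 4.08 CPM, below every exercised fish of 9 weeks, and 5 between 33.9 and 47.3 CPM, within or above the range of unexercised fish of 9 weeks. Nfu_g_1_007097 ran from 20.3 through a median of 84.9 to 674.7 CPM, the last in replicate 8.

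Of the 4 genes that rose, 27-week replicate 1 had 3 on the exercised side, replicates 2 to 6 had 1 each and replicates 7 to 10 had none. One of these genes was on the exercised side in 6 fish, which were replicates 1 to 6, with an SD of 0.21 log2 CPM at 27 weeks against 0.021 in unexercised and 0.062 in exercised fish of 9 weeks. The other rises were on that side in 0 or 1 fish. Nfu_g_1_003916 had a lowest, median and highest level of 3.85, 5.49 and 7.79 CPM at 27 weeks, so that no 27-week fish reached the lowest exercised fish of 9 weeks (10.4 CPM). Nfu_g_1_010461 ran from 15.4 through 20.2 to 22.8 CPM and also stayed below the lowest exercised fish of 9 weeks (24.1 CPM). Age and exercise are not crossed in the labels, so the placement of 27-week fish is a description without a test.

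**Figure D5:**
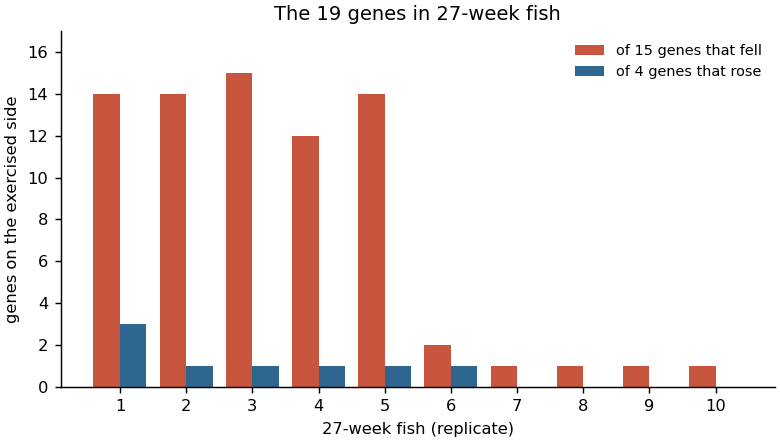
For each of the 10 fish of 27 weeks, the number of the 15 genes that fell and of the 4 genes that rose with exercise at 9 weeks whose level lay on the exercised side of the midpoint between the 9-week groups. Replicates 1 to 5 have 12 to 15 of the falling genes on that side and replicates 6 to 10 have 1 or 2.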

How the data were processed

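RNA-seq of brain was analysed in 10 fish of 9 weeks (5 exercised, 5 unexercised), with 10 fish of 27 weeks for levels. The authors deposited raw counts and RPKM values for each gene. STAR 2.4.1d, featureCounts 1.4.6-p4 and bcl2fastq 1.8.4 are listed in the submitters' processing notes without a role; libraries were made with an Illumina TruSeq kit, per the labels' protocols. For build, annotation and strand setting the entry is: not given in the sources used here. Thus reads shared by gene copies, overlapping or antisense genes cannot be told apart. The deposited RPKM values were divided by library totals taken in turn down the table (the implied length of 10327 genes varied by a log2 SD of 5.64e-05 that way, and by 0.42 with each library's own total), so they served only to derive gene length.

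Counts were tested with edgeR 4.0.16 in R 4.3.3 (filterByExpr, TMM, quasi-likelihood test, two-sided, Benjamini-Hochberg adjustment over all 19123 genes, threshold 0.05), without covariates. Log2 fold changes are exercised minus unexercised, and SE is the log2 fold change divided by the root of the test's F. CPM uses raw library totals. Separation of groups used TMM-scaled CPM. The residual component came from log2 CPM with a prior count of 2. Steps were tested on simulated data. Named genes are the 2 largest rises and falls past the threshold with at least 1 CPM in the higher group. DESeq2 1.42.0, limma 3.58.1 (voom), other filters, other scaling, all 20 libraries and leaving out each fish were tried. The comparison, rules and tests were chosen with earlier results of these data known. Libraries held 15048627 to 34843199 counts, and the precision of a difference rests on the spread between 5 fish a group. Planned gene lists were not analysed, since no identifier matched a name.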

Additional observations from a re-analysis of the deposited data

Results flagged for a closer look

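Of 28 groups of values checked for a fish standing apart (per-fish measures, and the named genes in each group), 3 had one, where chance gives about 1 in 20. Exercised replicate 2 at 9 weeks had 34843199 counts and 22032 genes detected, both well above the rest of its group, and the second can follow from the first. It was also the fish with the lowest score on the residual component. Replicate 8 of the 27-week group had 674.7 CPM of Nfu_g_1_007097, far above the other fish of that group, and it entered no test of exercise at 9 weeks except the fit of all 20 libraries.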

How the results depend on the processing

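No paired analysis was possible because replicate numbers come from listing order, not from labels. All alternatives were planned. The cause of a moved value was not tested unless stated. The count of 19 genes was 353 with DESeq2, which used its own filter and its own test. It was 1 with all 20 libraries in the fit and 0 to 15 with 1 fish left out. It stayed between 15 and 20 without a filter, with a stricter filter, with RLE factors, with raw library totals, with limma-voom and library weights, and with robust edgeR. None of the 4 named genes changed sign in 19 alternatives each, and 9 of these 76 fits lost a call. Their groups do not overlap, so the sign could not turn in the alternatives that left out 1 fish. The median size of change was 0.116 without a filter, 0.0884 with the stricter filter, 0.0969 with raw totals and 0.0955 to 0.104 with 1 fish left out. The 29 genes called with the residual component became 0 to 243 with 1 fish left out. The 497 separated genes became 721 to 941 with 1 fish left out, which follows from fewer fish to separate. The component held 37.3% of residual variance from genes of at least 1 CPM, 42.5% from the 1000 most variable genes and 32.6% to 38.3% with 1 fish left out. No alternative varied depth. The median SE was largest below 1 CPM (0.32 on the log2 scale).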
